A study of Mus musculus with 14 samples.

Results

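The genes described here are p53 and 8 of its transcriptional targets that act in cell cycle arrest and in feedback on p53. They are Cdkn1a, Btg2, Gadd45a, Plk2 and Ccng1 on the side of arrest, Mdm2, Phlda3 and again Ccng1 on the side of feedback, Ei24, and Trp53 itself. They were chosen by symbol. All probe sets annotated to 1 of these 9 symbols and to no other gene were followed. A probe set is a group of short probes on the array that reads 1 transcript. Of the 9 genes, 8 had a probe set annotated to them alone and Cdkn1a had 2, which gave 9 probe sets of the 12422 on the array that are not controls. Trp53 was not analysed here, because no probe set used here carried that symbol. All 9 probe sets passed the filter on low values, as did 8938 probe sets of 6541 genes in all.

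RNA labelled as mouse lymph node was hybridised to 14 one-colour Affymetrix arrays. The irradiated KO groups (Atm-/-) comprised 2 arrays at 30 min and 2 at 120 min after ionizing radiation (IR), set against 3 arrays of untreated KO nodes. The irradiated WT groups (Atm+/+) had the same numbers, 2 and 2 against 3. The sources used here do not give the strain, the age, the dose or the kind of Atm-/- allele. The labels do not say whether replicates came from different animals, and the p-values therefore reflect the spread between these samples alone, which may be technical.

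The kinase Atm is switched on by DNA double-strand breaks and phosphorylates both p53 and its inhibitor Mdm2, after which p53 escapes degradation and binds response elements near its target genes. Some targets hold the cell cycle, as the cyclin-dependent kinase inhibitor p21, the product of Cdkn1a, does, and others close loops back onto the pathway, as the p53 ubiquitin ligase Mdm2 does. Lymphocytes are among the most radiosensitive cells of the body, and their p53 response to IR is known to be delayed and reduced, rather than lost, in cells that lack Atm.

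A p53 response element consists of a pair of adjoining decamers, each with a C and a G around an AT-rich centre, purines before the C and pyrimidines after the G. Promoters from 250 bases before to 50 after each RefSeq start site (build GRCm38.p6) were searched on both strands for the decamer without mismatch. They were also searched for the full element, in which the decamers lie at most 13 bases apart with at most 2 mismatches outside the C and G cores. The 9 genes have 10 such promoters, since Cdkn1a has a start site 2790 bases downstream of its first. The decamer was found in 6 of the 10, against 8.36% of all 32851 promoters searched, and the full element in 3 of the 10, against 4.09% of all. A match is a description of the letters only. The promoters printed next are those of the 3 genes with a full element and of the feedback genes Mdm2 and Phlda3, whose responses are set beside that of Cdkn1a. Capitals mark every match, overlapping matches included, on the strand of the gene.

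Cdkn1a, upstream start, chr17:29090729-29091028, plus strand: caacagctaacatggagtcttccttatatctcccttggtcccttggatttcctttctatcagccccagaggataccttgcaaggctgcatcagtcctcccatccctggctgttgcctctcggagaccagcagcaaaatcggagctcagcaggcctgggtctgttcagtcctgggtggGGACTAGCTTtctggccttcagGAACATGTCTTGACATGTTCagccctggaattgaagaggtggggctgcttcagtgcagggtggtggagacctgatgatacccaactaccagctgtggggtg
Ccng1, chr11:40755237-40755536, minus strand: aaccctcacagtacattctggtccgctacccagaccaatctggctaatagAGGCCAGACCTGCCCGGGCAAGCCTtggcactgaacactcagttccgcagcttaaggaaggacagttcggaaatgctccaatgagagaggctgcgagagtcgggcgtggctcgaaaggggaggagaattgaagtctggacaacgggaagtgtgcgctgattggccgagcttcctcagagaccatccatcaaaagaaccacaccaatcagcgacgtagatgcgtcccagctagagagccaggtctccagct
Gadd45a, chr6:67037358-67037657, minus strand: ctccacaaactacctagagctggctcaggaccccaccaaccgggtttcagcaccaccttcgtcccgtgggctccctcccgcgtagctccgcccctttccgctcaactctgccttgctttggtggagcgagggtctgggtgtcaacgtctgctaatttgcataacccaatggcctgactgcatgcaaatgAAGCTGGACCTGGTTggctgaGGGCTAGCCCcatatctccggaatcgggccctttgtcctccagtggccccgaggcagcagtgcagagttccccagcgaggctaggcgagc
Mdm2, chr10:117710709-117711008, minus strand: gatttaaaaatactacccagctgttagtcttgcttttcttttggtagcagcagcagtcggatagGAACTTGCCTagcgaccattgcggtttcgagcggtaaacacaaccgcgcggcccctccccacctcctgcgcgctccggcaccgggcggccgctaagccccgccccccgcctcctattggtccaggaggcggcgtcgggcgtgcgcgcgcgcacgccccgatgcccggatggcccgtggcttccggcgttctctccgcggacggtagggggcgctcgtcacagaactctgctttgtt
Phlda3, chr1:135765835-135766134, plus strand: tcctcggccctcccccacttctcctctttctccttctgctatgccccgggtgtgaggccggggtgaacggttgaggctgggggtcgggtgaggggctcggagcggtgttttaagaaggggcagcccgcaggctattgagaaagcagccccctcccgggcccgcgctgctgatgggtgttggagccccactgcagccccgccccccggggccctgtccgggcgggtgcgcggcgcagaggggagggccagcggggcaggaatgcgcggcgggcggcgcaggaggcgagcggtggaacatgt

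In the upstream Cdkn1a promoter the element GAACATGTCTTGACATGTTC, with 1 mismatch and no spacer, begins 51 bases before the start site. Its first decamer also pairs without mismatch with GGACTAGCTT, 12 bases upstream of it. The downstream Cdkn1a promoter held no match. Ccng1 held the unspaced element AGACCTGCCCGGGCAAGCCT with 1 mismatch, and Gadd45a held GGACCTGGTTGGCTGAGGGCTAGCCC, whose decamers stand 6 bases apart with 2 mismatches. Single decamers were found in Mdm2 (GAACTTGCCT), Ei24 (GGGCATGCCC) and Trp53 (GGACTTGCCC). Btg2, Phlda3 and Plk2 held none in these windows, and elements outside them, such as those known in the first intron of Mdm2, were not searched.

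Values are given as deposited intensities on a linear scale, and changes as differences of normalized log2(intensity + 32) ± the standard error of the limma fit, a scale that understates changes of low signals. The adjusted p is the Benjamini-Hochberg value over all 8938 probe sets tested, and a probe set was called when it was under 0.05. The number of arrays limits the precision. Salivary gland transcripts were abundant on every array, the 8 marker genes with a probe set summing to between 45461 and 81865. At 120 min they summed to 73445 to 76203 in KO, above the 45461 to 60619 of untreated KO, and to 55560 to 64467 in WT, overlapping with the 54123 to 59202 of untreated WT. The median log2 change of these 8 genes was 0.018 in KO, with 6 positive, and 0.054 in WT, with 5 positive, and none was called. The markers of the labelled tissue were also read, and no B cell, T cell, stromal or endothelial marker was at 0 on all arrays of any group. Single arrays were not checked for this, and a value above 0 does not by itself show that a transcript was present. The summed B cell markers (11 of 12 genes with a probe set) lay at 2289 to 3109 in KO at 120 min against 1842 to 2417 in untreated KO, and at 1291 to 1404 in WT at 120 min against 2075 to 2814 in untreated WT. The summed T cell markers (12 of 14 genes) lay at 629.4 to 838.1 against 456.6 to 627.1 in the same KO groups and at 499.1 to 530.1 against 764.6 to 862.6 in the same WT groups. In KO the T cell sums at 120 min thus lay above the untreated ones and the B cell sums overlapped with them, while in WT both lay below. The summed macrophage and monocyte markers (8 of 8 genes) lay above the untreated arrays in both genotypes, at 1650 to 2103 in KO at 120 min against 1540 to 1608 in untreated KO, and at 2354 to 2383 in WT at 120 min against 1452 to 1725 in untreated WT. Of these 8 genes, 5 had a positive change in KO and 4 in WT. The markers called at 120 min against untreated arrays were the B cell gene Cd22, which fell by 1.62 ± 0.23 in WT (adjusted p = 0.0053 by limma), and the monocyte gene Cd14, which rose by 2.10 ± 0.24 in WT (adjusted p = 0.00087 by limma). The KO response of Cd14 at 120 min minus its WT response was -2.18 ± 0.33 (adjusted p = 0.027 by limma). Summed skeletal muscle markers (12 of 12 genes) ran from 913.8 to 3151 in KO at 120 min against 3352 to 10537 in untreated KO, and from 3459 to 3607 in WT at 120 min against 1232 to 2971 in untreated WT. Fewer cells of a type and less RNA per cell cannot be told apart in such bulk samples. RNA quality, read from the 3' to 5' ratio of the Gapdh control, stood at 0.857 and 0.777 in KO at 120 min against 0.867 to 0.976 in untreated KO, and 0.891 and 0.723 in WT at 120 min against 0.902 to 1.01 in untreated WT. The same ratio of the beta-actin control was 1.35 and 1.35 in KO at 120 min against 1.24 to 1.42 in untreated KO. In WT it was 1.41 and 1.33 at 120 min against 1.36 to 1.58 untreated, so that it overlapped in both genotypes. The arrays KO 30 min A, WT untreated A and KO 120 min A correlated least with the others, with a mean r of 0.9076, 0.9252 and 0.9294 against 0.9395 or more for the remaining ones. The part of cell content and RNA quality in the results below was not tested beyond the fits with a marker covariate given beside them.

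In irradiated KO nodes no member passed the threshold, and neither did any other of the 8938 probe sets tested. In WT nodes 2 of the 9, the first Cdkn1a probe set and Phlda3, were called as higher at 120 min, against 0.515% of all called in either direction. Phlda3 lay close to the threshold (adjusted p = 0.043 by limma). The second Cdkn1a probe set did not pass, and neither call held with the mean of the B and T cell markers as a covariate. In KO at 120 min the median change of the 9 probe sets was 0.15 on the log2 scale. The first Cdkn1a probe set, Phlda3 and Mdm2 lay above the untreated arrays there, as did 13% of all probe sets. In WT at 120 min all 9 had a positive change, with a median of 1.02 against 0.00 over all probe sets tested, and for 8 of the 9 both irradiated arrays exceeded every untreated one, as they did for 13.3% of all probe sets. In the main fit the change in KO was below that in WT for all 9 probe sets at 120 min, but no single difference between the genotypes passed. For Mdm2, Phlda3 and Ccng1 the sign of this difference turned in some alternative settings. Without IR, the first Cdkn1a probe set was the only one of the 9 higher on every KO array than on every WT array, as 5.56% of all were. It did not pass.

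**Figure D1:**
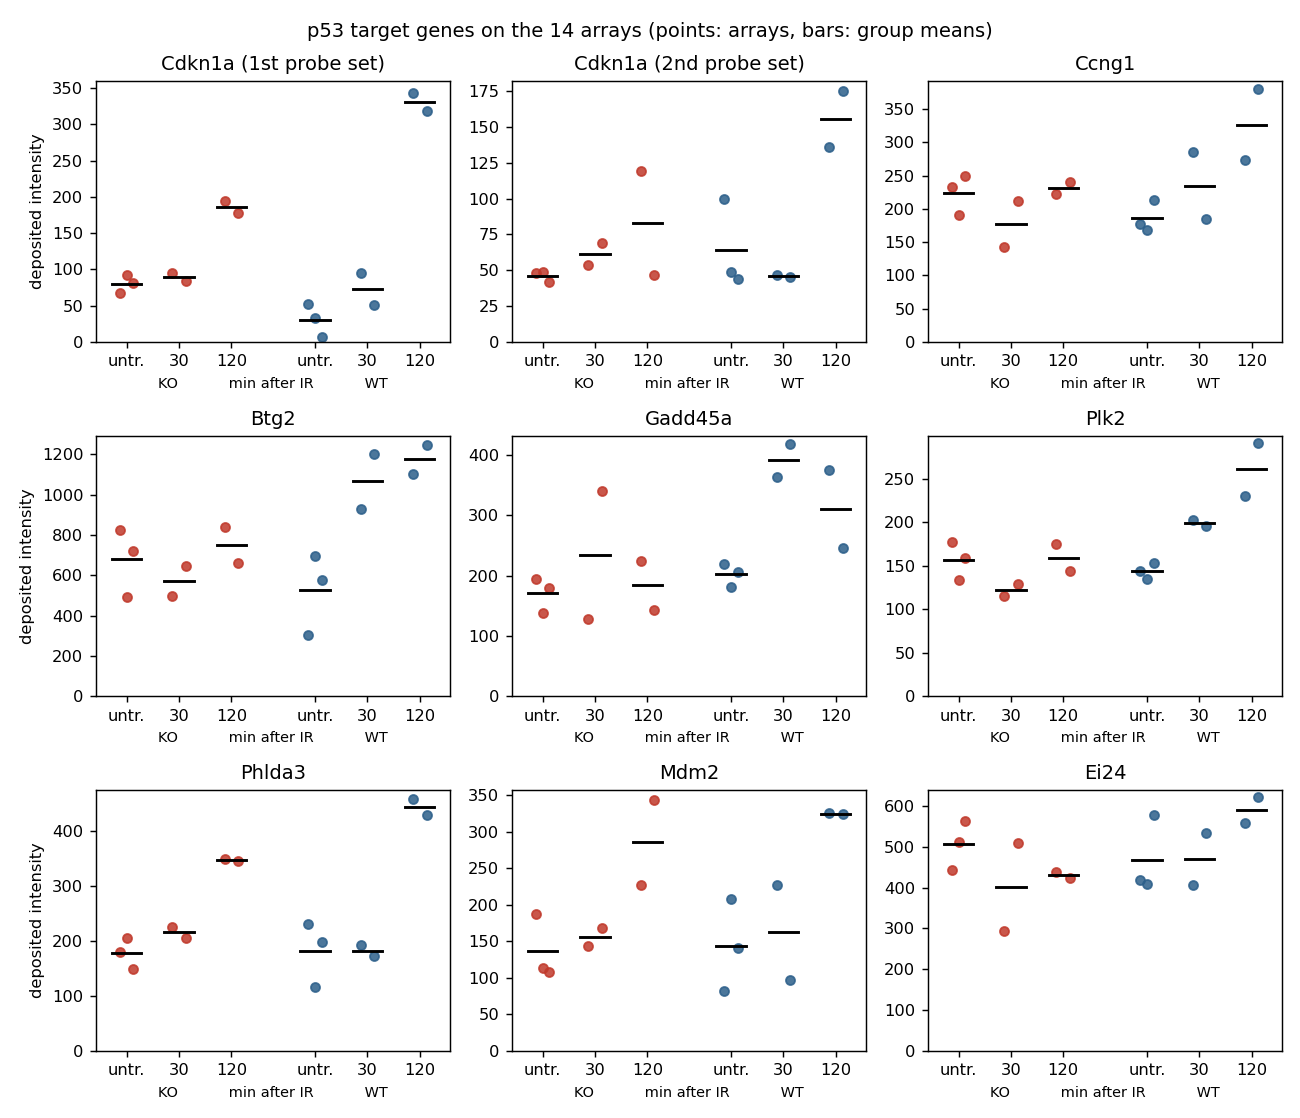
Deposited intensity (linear scale, y axis from 0) of each probe set on the 14 arrays, by genotype and time after IR, with points for arrays and bars for group means. The WT arrays at 120 min lie above the untreated WT arrays in every panel except that of Ei24, and the KO arrays at 120 min lie clearly above untreated KO for the first Cdkn1a probe set, Phlda3 and Mdm2.

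Cdkn1a encodes p21, which binds and inhibits the cyclin-dependent kinases of the G1/S transition. Its first probe set, the one with the higher mean over the arrays, read 67.2, 91.5 and 81.7 in untreated KO, 95 and 84.3 in KO at 30 min, and 194.1 and 177.5 in KO at 120 min. In WT it read 52.0, 32.3 and 7.1 untreated, 94.2 and 50.1 at 30 min, and 342.9 and 318.1 at 120 min. Of the 14 arrays, those of WT at 120 min were the highest and those of KO at 120 min the next, with no overlap between these groups or with any other. At the low end stood 2 of the untreated WT arrays, and the WT arrays at 30 min overlapped with untreated KO and with untreated WT.

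In KO the first Cdkn1a probe set was at 0.99 ± 0.26 at 120 min, a 1.98-fold change with a 95% interval from 0.42 to 1.55 (adjusted p = 0.487). At 30 min in KO it was at 0.11 ± 0.26. The KO level at 120 min exceeded that at 30 min by 0.88 ± 0.28 (adjusted p = 0.541), with both arrays of the later time above both of the earlier. In WT it rose by 2.59 ± 0.26 at 120 min, a 6.04-fold change (95% interval 2.03 to 3.16 on the log2 scale, adjusted p = 0.00044 by limma). Leaving out any 1 of the 14 arrays kept the call. With the mean of the B and T cell markers as a covariate the change was 2.28 with an adjusted p of 0.222, past the threshold no longer, and with that of the muscle markers it was 2.51 (adjusted p = 0.00246). Between the WT times, the level at 120 min exceeded that at 30 min by 1.78 ± 0.28 (adjusted p = 0.033). That call ended when 1 array was left out in 9 of 14 cases, namely without any of the 4 WT arrays at 30 or 120 min, any of the 3 untreated KO arrays or either KO array at 120 min, with an adjusted p of up to 0.37. It also ended in 6 of 13 other settings, among them the fits with the B and T cell covariate (adjusted p = 0.885), the muscle covariate (0.0838) and the replicate block (0.07). At 30 min the change in WT was 0.81 ± 0.26 (adjusted p = 0.828).

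The KO response minus the WT response of the first Cdkn1a probe set was -1.61 ± 0.37 at 120 min (95% interval -2.40 to -0.81, unadjusted p = 0.000811, adjusted p = 0.218) and -0.70 ± 0.37 at 30 min (adjusted p = 0.868). With single arrays left out this difference at 120 min ranged from -1.84 to -1.34. It was -1.18 with the B and T cell covariate (adjusted p = 0.9895 by limma) and -1.30 with the muscle covariate (adjusted p = 0.9726 by limma).

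Part of that difference lies in the untreated arrays. Untreated KO exceeded untreated WT by 0.90 ± 0.23, a 1.86-fold difference with a 95% interval from 0.39 to 1.40 (adjusted p = 0.634), while KO at 120 min lay below WT at 120 min by a log2 difference of -0.71 ± 0.28 (adjusted p = 0.588). The untreated WT arrays spanned 7.1 to 52.0, low on the array, and without WT untreated C, the lowest, the untreated difference was 0.63. The summed muscle markers given above differed between the same groups, higher on all untreated KO arrays than on all untreated WT arrays. With the mean of the muscle markers as a covariate the untreated difference was 0.69 (adjusted p = 0.816).

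The second Cdkn1a probe set read 48.0, 49.0 and 41.5 in untreated KO, 53.4 and 69.2 in KO at 30 min, and 119.3 and 46.6 in KO at 120 min, so that the KO arrays at 120 min disagreed. On the WT arrays it read 99.9, 48.8 and 44.1 untreated, 46.6 and 45.3 at 30 min, and 136.0 and 175.4 at 120 min, where both arrays lay above all others of the 14. The change at 120 min was 0.51 ± 0.28 in KO (adjusted p = 0.762) and 1.02 ± 0.28 in WT (adjusted p = 0.231). It passed in WT (1.26, adjusted p = 0.011) when the 3 arrays of lowest correlation, WT untreated A among them, were left out, an alternative chosen after seeing the data. Between untreated genotypes it was at -0.28 ± 0.25 (adjusted p = 0.988), opposite in sign to the first. The sources used here do not say where either probe set lies on the Cdkn1a transcripts. Across the 14 arrays, which share groups, their log2 values correlated with r = 0.69.

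Phlda3 encodes a small pleckstrin homology domain protein that competes with Akt for membrane lipids and so restrains a kinase that activates Mdm2. Its intensities were 179.7, 205.1 and 148.7 in untreated KO, 225.1 and 205.3 in KO at 30 min, and 348.6 and 344.4 in KO at 120 min. In WT they were 229.7, 115.6 and 197.3 untreated, 191.5 and 171.5 at 30 min, and 457.4 and 428.7 at 120 min. In both genotypes the arrays at 120 min were the highest, those of WT above those of KO, and the WT arrays at 30 min lay within the untreated range.

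The change of Phlda3 in KO at 120 min was 0.87 ± 0.23, or 1.83-fold (adjusted p = 0.487). In WT it rose by 1.18 ± 0.23 at 120 min, a 2.26-fold change (adjusted p = 0.043). The call lay close to the threshold and was lost when any array but WT untreated A was left out, 13 of 14 cases, with an adjusted p of up to 0.353. It also ended in 8 of 13 other settings, among them the fit with the B and T cell covariate (0.85, adjusted p = 0.739). The KO response minus the WT response was -0.30 ± 0.32 with a 95% interval from -1.002 to 0.39 (adjusted p = 0.923), and untreated KO and WT differed by 0.02 ± 0.20.

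Mdm2 encodes the ubiquitin ligase that marks p53 for degradation and is itself induced by p53. It read 187.0, 113.8 and 107.3 in untreated KO, 143.3 and 168.1 in KO at 30 min, and 227.6 and 344.1 in KO at 120 min. The WT values were 82.2, 207.4 and 140.1 untreated, 227.4 and 97.5 at 30 min, and 325.3 and 323.9 at 120 min. In both genotypes the arrays at 120 min lay above all untreated ones, and the KO and WT arrays at 120 min overlapped.

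The change of Mdm2 at 120 min was 0.94 ± 0.34 in KO (adjusted p = 0.646) and 1.07 ± 0.34 in WT (adjusted p = 0.363), neither past the threshold. The difference between the responses was -0.13 ± 0.49, with a 95% interval from -1.18 to 0.93, the widest among the 9 probe sets. With the B and T cell covariate the change in WT at 120 min was 0.30. At 30 min the change was 0.16 ± 0.34 in each genotype, and the 3 untreated WT arrays alone spanned 82.2 to 207.4.

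**Figure D2:**
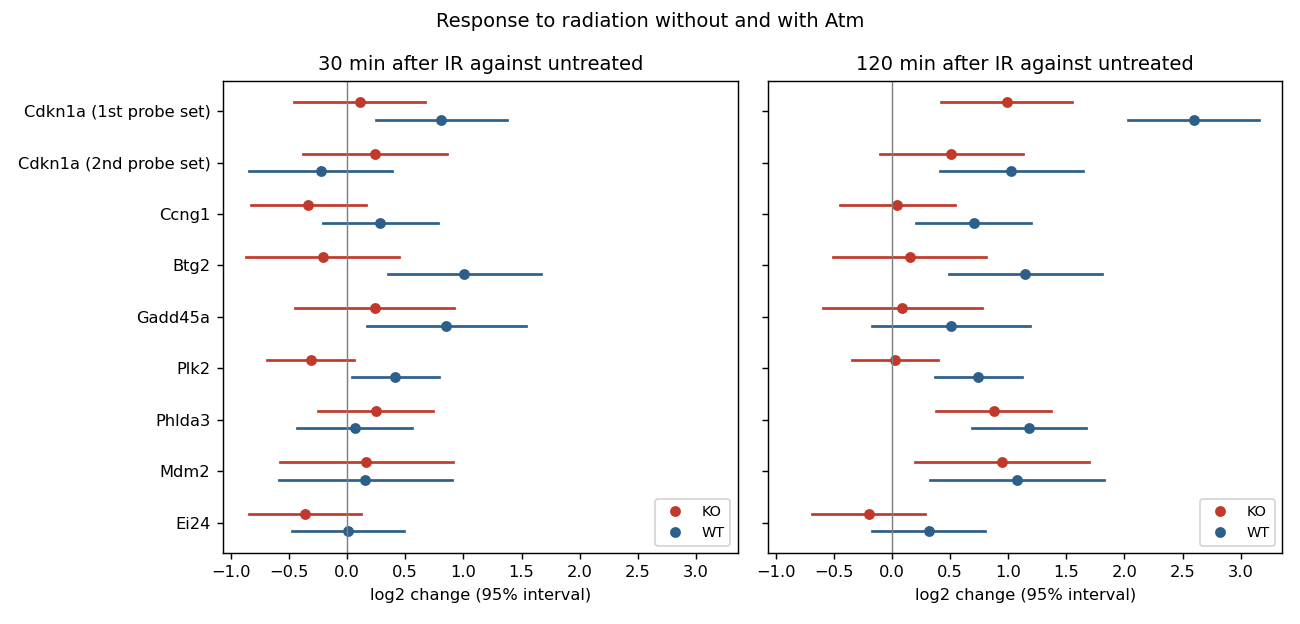
Change of each probe set on the log2(intensity + 32) scale, 30 min after IR (left) and 120 min after IR (right) against untreated arrays, for KO and WT, with 95% intervals from the limma fit. At 120 min the interval of the first Cdkn1a probe set runs from 0.42 to 1.55 in KO and from 2.03 to 3.16 in WT, while those of Phlda3 and Mdm2 overlap widely between the genotypes.

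Btg2 encodes an antiproliferative adaptor of the mRNA deadenylation machinery. It read 825.9, 493.4 and 721.4 in untreated KO, 497.7 and 645.7 in KO at 30 min, and 839.9 and 658.6 in KO at 120 min. In WT its intensities were 304.1, 696.4 and 577.7 untreated, 930.4 and 1204.2 at 30 min, and 1103.6 and 1246.5 at 120 min. All 4 irradiated WT arrays lay above all 10 others, already at 30 min, whereas each irradiated KO group overlapped with untreated KO, and the KO arrays at 120 min lay above those at 30 min. In KO the change was -0.21 ± 0.30 at 30 min and 0.15 ± 0.30 at 120 min, against 1.01 ± 0.30 (adjusted p = 0.824) and 1.15 ± 0.30 (adjusted p = 0.194) in WT at those times. The KO response minus the WT response was -1.22 ± 0.43 at 30 min (adjusted p = 0.847) and -0.99 ± 0.43 at 120 min (adjusted p = 0.668).

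Plk2 encodes a polo-like kinase of the centriole cycle. It read 177.3, 134.1 and 158.4 in untreated KO, 114.7 and 128.6 in KO at 30 min, and 174.5 and 144.1 in KO at 120 min. On the WT arrays it stood at 144.0, 134.6 and 153.3 untreated, 202.4 and 195.4 at 30 min, and 230.5 and 291.0 at 120 min. Its replicates were close, and the irradiated WT arrays were above all others at both times, while both KO arrays at 30 min were below all untreated KO arrays. In KO the change was -0.32 ± 0.17 at 30 min (adjusted p = 0.66) and 0.03 ± 0.17 at 120 min (95% interval -0.35 to 0.40). In WT it was 0.41 ± 0.17 at 30 min (adjusted p = 0.965) and 0.74 ± 0.17 at 120 min (adjusted p = 0.114). The difference between the responses was -0.73 ± 0.24 at 30 min (adjusted p = 0.806) and -0.72 ± 0.24 at 120 min (95% interval -1.25 to -0.19, adjusted p = 0.523). At 120 min the KO level lay below the WT level by a log2 difference of -0.62 ± 0.19 (adjusted p = 0.375).

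Ccng1 encodes cyclin G1, which brings a phosphatase to Mdm2. It read 233.5, 191.2 and 248.8 in untreated KO, 142.6 and 212.1 in KO at 30 min, and 221.8 and 240.0 in KO at 120 min. In WT it read 176.7, 168.4 and 213.8 untreated, 285.6 and 184.7 at 30 min, and 273.2 and 380.6 at 120 min. At 120 min the KO arrays overlapped with untreated KO, at 0.04 ± 0.23, while the WT arrays lay above untreated WT, at 0.70 ± 0.23 (adjusted p = 0.368) and at 0.16 with the B and T cell covariate. The difference between the responses at 120 min was -0.66 ± 0.32 (adjusted p = 0.738), and with the B and T cell covariate it was 0.08.

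Gadd45a encodes a small nuclear protein that binds PCNA and stress kinases and is induced at the G2/M checkpoint. It read 194.6, 137.7 and 179.6 in untreated KO, 128.7 and 339.4 in KO at 30 min, and 224.4 and 143.1 in KO at 120 min. In WT it read 218.8, 181.0 and 205.5 untreated, 364.0 and 417.6 at 30 min, and 374.2 and 244.8 at 120 min. It was the only probe set of the 9 whose WT mean was higher at 30 min than at 120 min, although the arrays of the 2 times overlapped (120 min minus 30 min -0.35 ± 0.35, adjusted p = 0.997). In KO the change was 0.24 ± 0.32 at 30 min and 0.09 ± 0.32 at 120 min, against 0.85 ± 0.32 (adjusted p = 0.93) and 0.51 ± 0.32 (adjusted p = 0.716) in WT at those times. The 2 KO arrays at 30 min were far apart, and without KO 30 min A the KO response minus the WT response at 30 min was 0.02 in place of -0.62.

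Ei24 encodes a membrane protein of the endoplasmic reticulum that takes part in autophagy. In KO it read 437.5 and 424.6 at 120 min against 442.6, 513.0 and 563.3 untreated, a change of -0.20 ± 0.22 (adjusted p = 0.89). In WT it had the smallest change of the 9 at 120 min, 0.31 ± 0.22 (adjusted p = 0.769), and its arrays at that time, 558.8 and 623.3, overlapped with the untreated ones, 418.6, 408.3 and 578.2. At 30 min it was at 293.6 and 509.1 in KO and at 406.2 and 535.3 in WT, both overlapping with their untreated arrays.

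The counts over the 9 probe sets were read against those over all 8938. The genes and the lists below were chosen with earlier results of these data known, so these comparisons are a description and not independent support. In KO no probe set of the array was called at either time, which is 0% of all at 30 min and 0% at 120 min, nor between the 2 times (0%). An unadjusted p under 0.05 by limma in either direction was found for 749 of all probe sets at 30 min, 645 at 120 min and 640 between the times. Of the 9, 0, 3 and 2 had such a p, all upward, as 3.85%, 3.58% and 4.01% of all did upward. The 3 at 120 min were the first Cdkn1a probe set, Phlda3 and Mdm2, which were also the 3 of the 9 that did not overlap with the untreated arrays and were higher, against 13% of all. At 30 min Phlda3 alone did so on the normalized scale, against 11.1% of all, and Plk2 lay below the untreated arrays, against 11.3% of all.

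In WT at 120 min 2 of the 9 were called, both upward, against 0.515% of all probe sets in either direction, and 7, all upward, had an unadjusted p under 0.05, as 4.65% of all did upward. There 8 of the 9 did not overlap with the untreated arrays and were higher on the normalized scale, against 13.3% of all. In WT at 30 min 0 of the 9 were called, against 0.101% of all. There 4 (the first Cdkn1a probe set, Btg2, Gadd45a and Plk2) had an unadjusted p under 0.05 by limma, all upward, as 2.51% of all did, and those 4 lay above the untreated arrays after normalization, against 9.83% of all. Between 30 and 120 min in WT 1 of the 9 was called, against 0.123% of all.

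**Figure D3:**
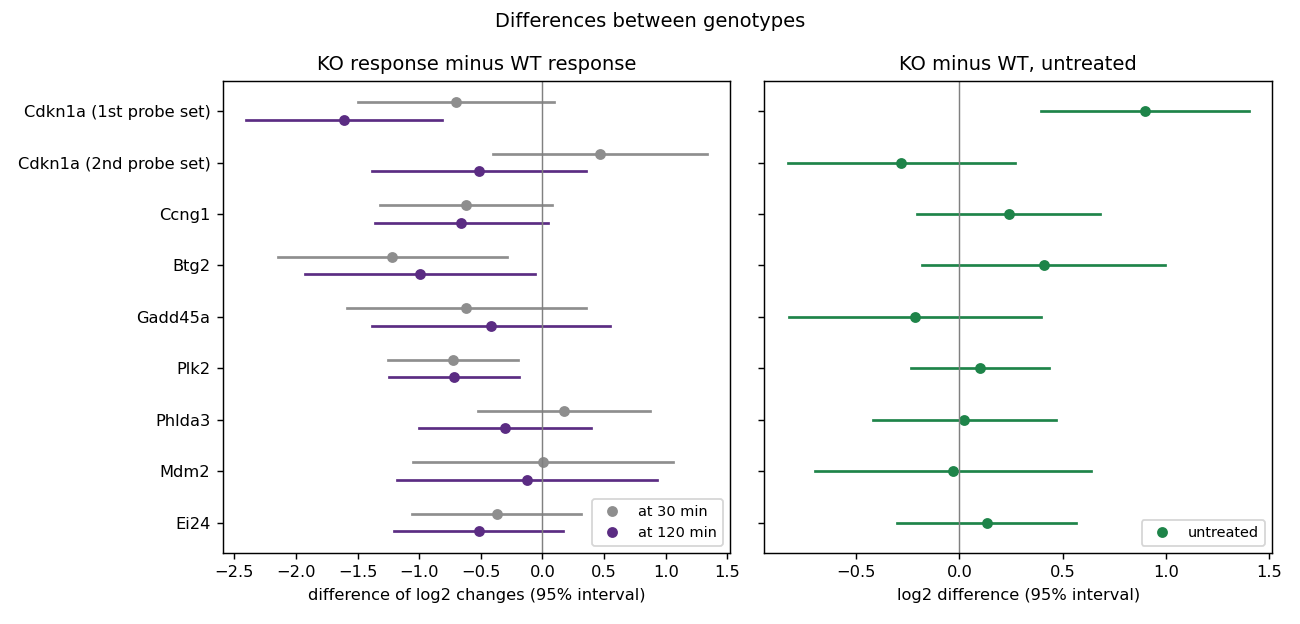
Left, KO response minus WT response on the log2 scale at 30 and 120 min. Right, untreated KO minus untreated WT, both with 95% intervals. At 120 min all 9 points lie below 0, with the intervals of the first Cdkn1a probe set, Btg2 and Plk2 clear of it, and among untreated arrays only that of the first Cdkn1a probe set is clear of 0.

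Setting the KO response against the WT response asks whether the change differed between these genotype groups. Their summed B cell, T cell and muscle markers also changed differently, as given above. The part of cell content in these differences was not tested beyond the fits with a marker covariate. At 120 min the KO response minus the WT response was negative for all 9 probe sets in the main fit, from -1.61 to -0.13. The median was -0.52 against -0.01 over all, and 0 of the 9 were called, against 0.134% of all. The sign did not hold in every alternative setting for 3 of them. There the difference reached 0.92 for Mdm2, 0.14 for Phlda3 and 0.08 for Ccng1, and with 1 array left out it reached 0.16 for Mdm2. The first Cdkn1a probe set, Btg2 and Plk2 had an unadjusted p under 0.05 by limma, all downward, as 3.47% of all did. At 30 min this difference of responses was negative for 6 of the 9, with a median of -0.62, and 0 were called, against 0.0783% of all. Btg2 and Plk2 had an unadjusted p under 0.05 by limma there, both downward, as 2.82% of all did. Both differences and the untreated one share the same untreated arrays, so they are not independent of each other.

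At 120 min the KO level was below the WT level for all 9 probe sets, by log2 differences of -0.80 to -0.16, and for 8 of the 9, all but Mdm2, both KO arrays lay below both WT arrays, against 20.9% of all probe sets. Here 0 of the 9 were called, against 0.257% of all. Both Cdkn1a probe sets and Plk2 had an unadjusted p under 0.05 by limma, all downward, as 3.74% of all did. Between untreated genotypes 0 probe sets of the array were called (0%), with 490 at an unadjusted p under 0.05 by limma, and 6 of the 9 were positive with a median of 0.10. The first Cdkn1a probe set did not overlap between untreated KO and untreated WT and was higher in KO, against 5.56% of all. The second did not overlap on the normalized scale either but was lower in KO, at -0.28 ± 0.25, against 5.09% of all, while its deposited intensities overlapped. Apart from the first Cdkn1a probe set, the untreated differences ran from -0.28 to 0.41.

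The fold changes at 120 min on this scale were ordered within each genotype. In KO the first Cdkn1a probe set led with 1.98-fold, followed by Mdm2 (1.93), Phlda3 (1.83), the second Cdkn1a probe set (1.42), Btg2 (1.11), Gadd45a (1.06), Ccng1 (1.03), Plk2 (1.02) and Ei24 (0.87). In WT it led with 6.04-fold, followed by Phlda3 (2.26), Btg2 (2.21), Mdm2 (2.10), the second Cdkn1a probe set (2.04), Plk2 (1.68), Ccng1 (1.63), Gadd45a (1.42) and Ei24 (1.24). The 95% intervals of neighbours overlapped, apart from that of the first Cdkn1a probe set in WT, and differences between probe sets within a genotype were not tested.

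Other genes of the pathway had median changes closer to 0 at 120 min. None of the genes of the 5 lists described next was called in any comparison. At an unadjusted p under 0.05 by limma, the lists of apoptosis targets, repair and metabolism targets, regulators, relatives and cyclins had 0, 2, 1, 0 and 0 higher genes at 120 min in KO and 2, 3, 1, 4 and 0 in WT, with 1 lower gene each among the repair targets and the cyclins in WT. The lists held 8, 22, 21, 16 and 16 tested genes, and over all probe sets 3.58% were higher at that p in KO and 4.65% in WT. Of 10 apoptosis targets of p53 with a probe set, 8 were tested, and their median change was 0.07 in KO and 0.12 in WT. The largest in WT were Perp, a desmosomal membrane protein, with 0.13 ± 0.19 in KO and 0.48 ± 0.19 in WT (adjusted p = 0.547), and the apoptosome scaffold Apaf1, with 0.21 ± 0.19 in KO and 0.47 ± 0.19 in WT (adjusted p = 0.507). Of 25 targets in repair, redox control, metabolism and secretion, 22 were tested, with medians of -0.05 in KO and 0.12 in WT. The repair nuclease gene Ercc5 was at 0.08 ± 0.29 in KO and 0.78 ± 0.29 in WT (adjusted p = 0.479), and Ckap2, whose product binds microtubules, at -0.06 ± 0.20 in KO and 0.64 ± 0.20 in WT (adjusted p = 0.319).

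Of 22 regulators of p53, 21 were tested, with a median of 0.05 in KO and 0.04 in WT. The p53 kinase gene Hipk2 was at -0.09 ± 0.39 in KO and 0.81 ± 0.39 in WT (adjusted p = 0.605), and Cdkn2a, which encodes the Mdm2 inhibitor Arf and the kinase inhibitor Ink4a, at -0.30 ± 0.35 in KO and 0.71 ± 0.35 in WT (adjusted p = 0.61). Of 18 relatives of the 9 genes, 16 were tested, with medians of -0.05 in KO and 0.26 in WT. Among them the cyclin-dependent kinase inhibitor gene Cdkn2d was at 0.68 ± 0.45 in KO and 0.83 ± 0.45 in WT (adjusted p = 0.658). Btg1, the closest relative of Btg2, was at 0.12 ± 0.17 in KO and 0.71 ± 0.17 in WT (adjusted p = 0.14).

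Of 17 cyclins and kinases that p21 binds or that drive the same steps, 16 were tested, with medians of -0.07 in KO and -0.11 in WT. The mitotic kinase gene Cdk1 was at -0.16 ± 0.39 in KO and -0.88 ± 0.39 in WT (adjusted p = 0.561), and Rbl1, a relative of the retinoblastoma protein, at 0.24 ± 0.34 in KO and -0.61 ± 0.34 in WT (adjusted p = 0.671). Some genes stand in 2 of these lists, and the named ones are those with the largest absolute WT change in each.

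**Figure D4:**
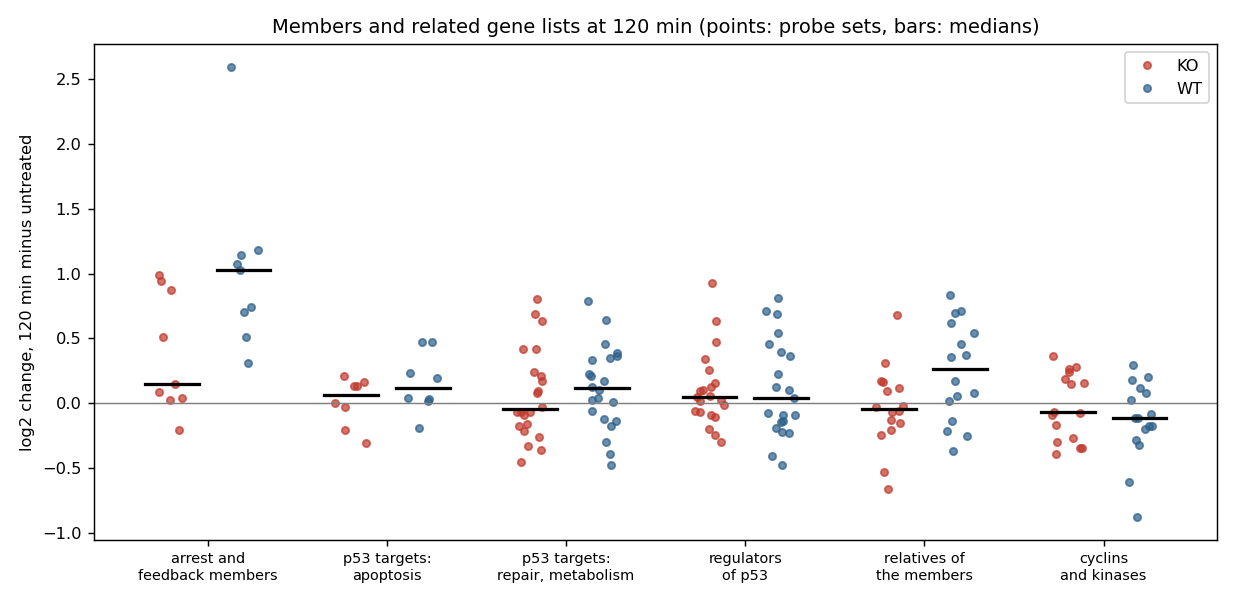
Change at 120 min against untreated arrays on the log2 scale, in KO and WT, for the arrest and feedback genes and for 5 lists of related genes, with points for probe sets and bars for medians. The arrest and feedback genes have medians of 0.15 in KO and 1.02 in WT, while the list medians lie between -0.11 and 0.26.

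The pattern over the 14 arrays was compared with that of the other tested probe sets of a single gene by Pearson's r of the normalized log2 values, as a description, since the arrays share 6 groups. The 5 most like the first Cdkn1a probe set were Phlda3 (r = 0.84), the lysosomal chloride transporter gene Clcn7 (0.836), the receptor tyrosine kinase gene Erbb3 (0.829), Srpr (0.814) and Fars2 (0.811). The 3 most like Phlda3 were Erbb3 (0.855), Cdkn1a (0.84) and Map3k8 (0.838), and those most like Mdm2 were Clcn7 (0.865), Pacs1 (0.823) and Ulk1 (0.795). The first Cdkn1a probe set, Phlda3 and Mdm2 are the members above the untreated arrays in both genotypes at 120 min.

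Plk2 was most like Birc3 (r = 0.916), Cftr (0.913) and Bcl10 (0.906), and Ccng1 was most like Ak4 (0.859), Plk2 (0.85) and Wsb1 (0.832). Btg2 was most like Gnai3 (0.892), Csrp2 (0.881) and Gpank1 (0.867), and its r with Plk2 was 0.78. Gadd45a followed Vegfa (0.963), S100a1 (0.925) and Igfals (0.901), and had an r of 0.168 with the first Cdkn1a probe set. The second Cdkn1a probe set was most like Lcn2 (0.899), Grina (0.894) and Tcf25 (0.866), and Ei24 was most like Zpr1 (0.918), Srprb (0.883) and Ddx3x (0.881). Within the 9, r ran highest for Ccng1 with Plk2, and for the first Cdkn1a probe set with Phlda3, and lowest for Mdm2 with Ei24 (0.081).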

How the data were processed

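The deposited values are linear intensities, 1 for each probe set on each array. The sources used here do not say how the authors made them, but their 2% trimmed mean was 150.1 on every array, so arrays had been scaled before deposit. Groups and replicate letters came from the labels' sample titles. The deposited intensities were taken as log2(intensity + 32) and quantile normalized, because array medians spanned 0.273 on that scale (limit 0.2). After removal of 66 control probe sets, those above the 40th percentile of their array on at least 2 arrays were tested.

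Means of the 6 groups were fitted over the 14 arrays with limma 3.58.1 (lmFit, contrasts.fit, eBayes) in R 4.3.3, with 8 residual and 4.56 prior degrees of freedom, and 10 comparisons were drawn from the fit. Adjustment was by Benjamini-Hochberg over the 8938 probe sets. All probe sets of the 9 symbols were named in every comparison, and from each list of related genes the 2 with the largest absolute change in WT at 120 min, no list gene being called. A list gene was read by its probe set of highest mean. Gene names came from the platform annotation, and promoters from RefSeq (GRCm38.p6). The 396 probe sets annotated to several genes were given no gene name and so were not followed as members. The genes and lists were chosen with earlier results of these data known. The alternatives tried were other offsets, a floor, other scalings and filters, a fit of only the groups compared, a replicate block, another variance model, marker covariates and arrays left out.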

Additional observations from a re-analysis of the deposited data

How the results depend on the processing

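All 90 changes of the 9 probe sets were recomputed under 27 settings, 14 that left out 1 array and 13 others. Most of the 90 were not called to begin with and so had no call to lose. Of these 2430 values 2383 kept their side of the threshold and any direction they had been given, 37 lost a call, 3 gained one and 7 turned in sign. A change within 1 standard error of 0 in the main fit was given no direction, so that its turns in sign stand among the 2383. Such turns include those of Mdm2 and Phlda3 in the difference of responses at 120 min, up to 0.9243 and 0.1439. All lost calls were those of the first Cdkn1a probe set and Phlda3 at 120 min in WT, and of the first Cdkn1a probe set between the WT times. The 2 calls at 120 min in WT became 1 (Cdkn1a) with an offset of 16, a floor of 32, no filter, only the groups compared, the replicate block or the muscle covariate, and 0 with the B and T cell covariate. They ranged from 1 to 2 with an array left out. The call between 120 and 30 min in WT became 0 with an offset of 16, only the groups compared, the replicate block, the muscle covariate or the B and T cell covariate, and ranged from 0 to 2 with an array left out (2 without WT untreated B, which added Phlda3). The other 8 counts were 0 in every setting. With the replicate block Phlda3 was at 1.17 (adjusted p = 0.113) at 120 min in WT, and Cdkn1a at 1.78 (adjusted p = 0.07) between the WT times. Of 31 same-letter pairs, 0 had deviations from their group means correlated above 0.1 (range -0.121 to 0.084). In groups of 2 arrays the deviations of A and B mirror each other, so the pairs are not separate checks. Whether the letters pair samples by animal or day cannot be settled in this way.

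With the B and T cell covariate Ccng1 turned to -0.0215 between untreated genotypes, 0.0838 in the difference of responses at 120 min, -0.0208 between the WT times and 0.0623 between genotypes at 120 min, where Phlda3 turned to 0.0116. Without the 3 arrays of lowest correlation Ei24 turned to 0.0201 in the difference of responses at 30 min. That of Gadd45a ranged from -1.25 to 0.0165 with an array left out. The cause was not tested. With 2 arrays per irradiated group, changes under about 2 standard errors could not be told from the spread between arrays. Larger changes also failed to pass after adjustment, such as that of Plk2 at 120 min in WT (0.74 ± 0.17, adjusted p = 0.114 by limma).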

Other observations

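A pair of probe sets was annotated to the pseudogene Trp53-ps, which is not among the 9 genes. The sources used here do not say whether they also read Trp53 transcripts. The first lay between 141.5 and 325.5 over the 14 arrays, at 0.19 ± 0.32 in KO and 0.02 ± 0.32 in WT at 120 min on the log2 scale. The second lay between 42.2 and 100.1, at -0.20 ± 0.22 in KO and 0.23 ± 0.22 in WT at 120 min. Neither passed in any of the 10 comparisons.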
